A study of Mus musculus with 4 samples.

Results

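Microglia of young adult mice with allergic airway inflammation were compared with microglia of control mice of the same age. The comparison took the array of the allergy group at postnatal day 70 (P70) and the array of its control, 2 of the 4 arrays of the study. Control mice had received PBS and mice of the allergy group ovalbumin (OVA), all were male C57BL/6J mice, and microglia were taken from whole brain 1 day after the challenge through the nose. Cells of 4 samples were pooled for each group and each pool was hybridised to 1 array, so an animal's own value could not be recovered. The other pair of arrays held the same groups at P30. The labels give no further allele or agent. With 1 array per group there was no replicate spread and no test could be made. Every value below is therefore a difference between 2 arrays, and the number of arrays limits its precision. Of 17641 genes named by a probe set with a single symbol, 8821 had a mean log2 intensity over the 4 arrays at or above the median gene, 7.18, and are called expressed. That level is called the floor. Just under it lay Thra, and Uqcrfs1 was the first gene above it.

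Microglia are the macrophages of the brain tissue. Close relatives, the border-associated macrophages, live in the meninges, around vessels and in the choroid plexus, and blood monocytes, dendritic cells and neutrophils can stand beside them in a brain isolate. Class II molecules of the major histocompatibility complex present peptides to helper T cells, and macrophages make more of them when activated. Allergic inflammation is driven by the cytokines IL-4 and IL-13, which signal through STAT6 and raise a set of genes in macrophages that includes lectins and chemokines. In bulk RNA, more cells of a type and more RNA per cell cannot be told apart.

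The cell type given on the labels was checked first. All 33 homeostatic microglia genes found on the array were expressed. Sall1, a transcription factor of microglial identity, read 13.40 on the PBS and 13.62 on the OVA array. The purinergic receptor gene P2ry12 was at 15.14 and 15.65, and Tmem119, a surface marker, at 9.14 and 9.34. Both P70 arrays thus carried the microglial genes at similar levels. Genes of neutrophils were also bright at this age, on both arrays: S100a8 at 18.28 and 17.77, Ngp at 17.35 and 17.20, and Camp at 16.99 and 17.13. On the P30 arrays S100a8 lay at 13.38 in PBS and 11.85 in OVA.

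More genes stood higher in OVA than lower as deposited, with large receptor families, predicted genes, small RNAs and antigen receptor segments left out. At least 1.5-fold higher were 353 of the 8821 expressed genes, 4.00% of them, and at least 1.5-fold lower were 110, or 1.25%. At 2-fold these were 42 and 18 genes. The excess varied with the level of a gene. The median difference was 0.0064 log2 units for genes with a mean P70 level under 8, 0.15 between 9 and 10, 0.19 between 12 and 14, and 0.14 from 14 upwards. After a smooth trend along the level was subtracted, which is called centring below, 173 genes were at least 1.5-fold higher (1.96%) and 167 lower (1.89%). Of these, 172 and 102 had also been so before centring. The share of higher genes among those that differed was 76.2% as deposited, 50.9% after centring, 52.6% with each array centred on its median, 51.1% after quantile normalization over the expressed genes and 87.8% after quantile normalization over all probe sets. With every gene class kept it was 38.8%, from 630 higher and 995 lower genes. The balance of directions therefore moved with the scaling and turned with the choice of gene classes. Differences below are as deposited. Centred values follow for the genes described most fully, and the text says where centring takes a named gene back inside 1.5-fold. The 4.00% and 1.25% are the shares to read list counts against, and 1 higher member in a list of 20 or more is close to that background.

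**Figure D1:**
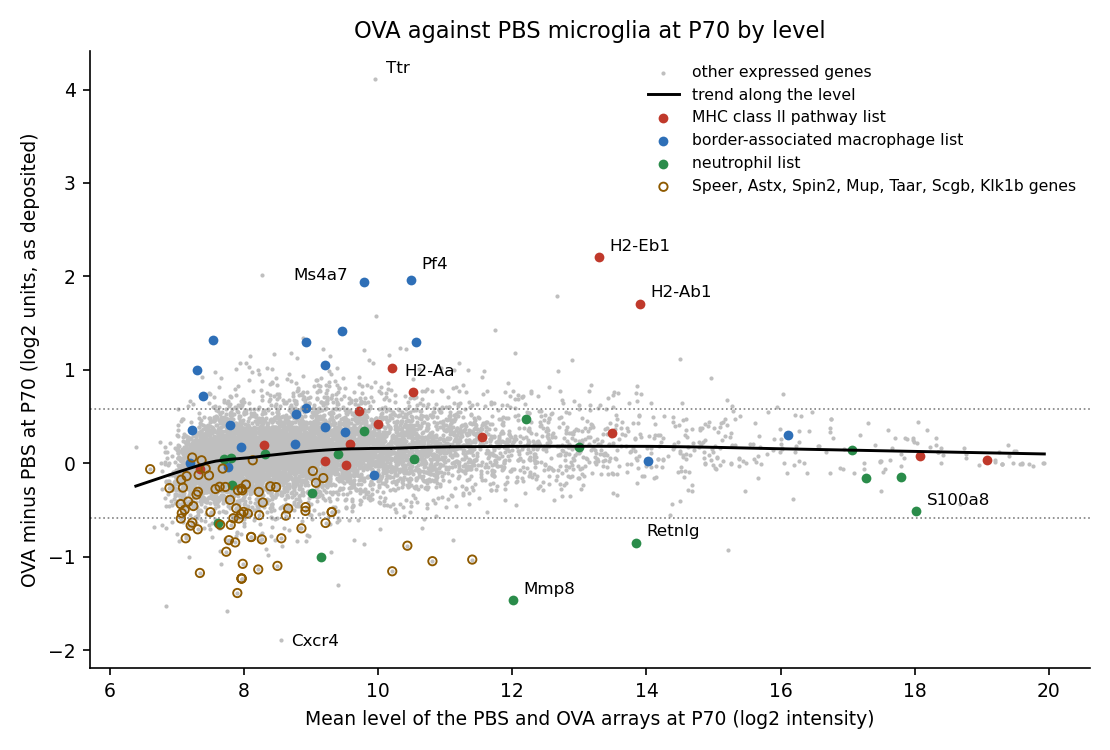
Each point is an expressed gene, with the mean log2 intensity of both P70 arrays on the x axis and the OVA minus PBS difference in log2 units on the y axis; the black line is the trend subtracted in centring and the dotted lines mark 1.5-fold. H2-Eb1 and H2-Ab1 stand 2.21 and 1.71 above 0 at levels where most genes lie close to the line, Mmp8 and Retnlg stand 1.46 and 0.85 below 0, and open brown circles mark multigene families, mostly below 0.

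Genes of the class II complex were among the immune genes with the largest differences. H2-Eb1 led them, Pf4, Ms4a7 and Cxcr4, described further on, lay between it and H2-Ab1 in size, and H2-Aa ranked lower. The beta chain gene H2-Eb1 had a P70 level of 12.19 without and 14.40 with OVA, and P30 levels of 8.72 and 8.01. H2-Ab1, the beta chain of the other classical molecule, was at 13.05 and 14.76 at P70 and at 10.17 and 9.58 at P30. H2-Aa, its alpha chain, was at 9.69 and 10.71. OVA stood 2.21 higher for H2-Eb1 (centred 2.02), 1.71 for H2-Ab1 (1.53) and 1.02 for H2-Aa (0.86). So all 3 chains were higher in OVA at the older age, and for H2-Eb1 and H2-Ab1 both P70 arrays lay above both P30 arrays.

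The genes that load the class II molecule split. H2-DMb1, a chain of the DM exchange factor, went from 10.14 in PBS to 10.90 in OVA, a difference of 0.76 (0.59). H2-DMb2 differed by 0.55 (0.40) and H2-DMa, its partner chain, by 0.28 (0.11). Among the chains of the DO inhibitor of DM, H2-Oa differed by 0.42 (0.26) and H2-Ob by -0.021 (-0.17). The proteases that cut antigen and invariant chain were nearly equal on both arrays: Ctss differed by 0.031 and Lgmn by 0.075. The reductase gene Ifi30 differed by 0.33 (0.14). Of the factors that drive class II transcription, Rfxap differed by 0.21, Rfxank by 0.029 and Rfx5 by -0.061, and Ciita, the master coactivator, lay under the floor at 6.76 and 6.94. H2-Eb2 was under the floor too, at 6.49 and 6.75. Marchf1, a ligase that removes class II from the surface, differed by 0.19. In all, 4 of 15 expressed members were at least 1.5-fold higher under both scalings and none lower. Their median was 0.28, or 0.12 after centring, beside 0.090 and 0.0017 over all expressed genes.

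Promoter sequences of these genes are shown because classical and accessory class II genes share a short upstream module, the X box, bound by the RFX factors, followed by the Y box, an inverted CCAAT bound by NF-Y. Stretches of 80 bases were read from the RefSeq promoter table (GRCm38.p6) 5′ to 3′ on the strand of the gene. Capitals mark ATTGG, the inverse of CCAAT, and in H2-Eb1 also the X box searched as AGCAAC, any base, then GATG. The coordinates are chr17:34305748-34305827 on the plus strand for H2-Eb1, chr17:34287852-34287931 on the minus strand for H2-Aa, chr17:34153070-34153149 plus for H2-DMb1, chr17:34145099-34145178 plus for H2-DMb2, chr17:34092276-34092355 plus for H2-Oa and chr17:34238788-34238867 plus for H2-Ob.
H2-Eb1: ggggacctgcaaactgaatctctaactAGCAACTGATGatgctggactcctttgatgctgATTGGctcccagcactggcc
H2-Aa: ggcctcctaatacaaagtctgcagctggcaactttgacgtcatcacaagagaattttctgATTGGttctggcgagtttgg
H2-DMb1: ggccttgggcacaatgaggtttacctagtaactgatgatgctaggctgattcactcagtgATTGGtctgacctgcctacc
H2-DMb2: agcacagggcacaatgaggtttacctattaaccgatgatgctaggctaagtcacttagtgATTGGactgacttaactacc
H2-Oa: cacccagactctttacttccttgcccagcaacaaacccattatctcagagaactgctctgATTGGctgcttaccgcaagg
H2-Ob: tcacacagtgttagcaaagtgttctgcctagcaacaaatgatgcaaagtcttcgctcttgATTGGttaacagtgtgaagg

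CCAAT on either strand was found in the promoters of all 7 class II genes that the table holds of the 8 searched, and in 37.4% of 32851 promoters of the same length. The inverse form began between 43 bases (H2-Oa) and 198 bases (H2-DMa) upstream of the start. A second CCAAT, on the plus strand and not overlapping the first, lay 35 bases upstream in H2-Eb1. The X box as spelled was found in H2-Eb1 alone among the 7 genes and in 0.0700% of all promoters. H2-Ob and H2-Oa carry the same CCAAT letters as H2-Eb1 and H2-Aa, and their differences between the arrays were -0.021 and 0.42 against 2.21 and 1.02. A match to these letters is a description of the sequence.

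Class I genes were nearly level. None of 15 expressed members differed by 1.5-fold, and their median was 0.17, or 0.023 after centring. The classical heavy chains H2-K1 and H2-D1 differed by 0.31 and 0.37, and the light chain gene B2m by 0.12. Among 13 genes that engage T cells, 4 were at least 1.5-fold higher: Cd83, an activation marker that stabilises class II at the surface, at 8.11 and 9.30 (difference 1.19, centred 1.07), Slamf9 at 10.75 and 11.56 (0.81), Cd244 at 8.41 and 9.18 (0.77) and Lgals9, encoding galectin-9, at 13.74 and 14.39 (0.64). Lgals9 came to 0.46 after centring and the other 3 stayed at or above 0.63. The co-stimulatory genes Cd86, Cd80 and Cd40 differed by 0.12, -0.085 and -0.019. The list median was 0.26 (0.20).

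Some markers of border-associated macrophages were higher in OVA. Pf4, a platelet-type chemokine also made by these macrophages, was at 9.51 in PBS and 11.47 in OVA, and Ms4a7 at 8.82 and 10.77. The lectin gene Clec12a was at 8.76 and 10.17, the endocytic adaptor gene Dab2 at 8.27 and 9.58, and the mannose receptor gene Mrc1 at 8.68 and 9.74. At P30 these 5 genes lay between 7.33 and 8.85 and each was lower in OVA, by between 0.10 and 0.58. The P70 differences were 1.97 (1.80), 1.94 (1.78), 1.42 (1.27), 1.30 (1.18) and 1.06 (0.92) in that order. Cd209a, a DC-SIGN type lectin, differed by 1.30 (1.13) at P70. Unlike the 5 genes it was higher in OVA at P30 too, at 8.06 in PBS and 8.38 in OVA. The scavenger receptor gene Cd36 went from 6.88 to 8.19, Clec4n from 6.80 to 7.81 and Ccl24 from 7.03 to 7.75. All 3 were under the floor in PBS, so the sizes of their differences are uncertain. Cd36 and Ccl24 lay under it on both P30 arrays as well and are called expressed only through the OVA array at P70. Clec4n, at 7.27 in PBS and 7.13 in OVA at P30, also passed the floor on the mean only through that array.

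Other markers of the same cells lay closer to level. The haptoglobin-haemoglobin receptor gene Cd163 differed by 0.36, the scavenger receptor gene Stab1 by 0.38, the transcription factor gene Maf by 0.30 and F13a1 by 0.18. Cbr2, Tgfbi and the growth arrest ligand gene Gas6 differed by 0.41, 0.34 and 0.21, and Hpgd and Cd209g by less than 0.1. Cd209f differed by -0.035 and the iron exporter gene Slc40a1 by -0.13. Of 30 markers found, 8 lay under the floor, among them Lyve1 (6.78 and 6.99), Folr2 (7.16 and 7.42), Siglec1 (6.34 and 6.52) and Ccl8 (6.17 and 7.10). Of the 22 expressed, 10 were at least 1.5-fold higher as deposited, 9 after centring and none lower, with a median of 0.47 (0.41). The 10 include Cd36, Ccl24 and Clec4n, which passed the floor on the mean only through the array in which they are high. The number higher ran from 7 to 11 over the settings tried. The summed intensity of all 30 was 89266 in PBS and 112370 in OVA at P70, most of it from Maf. Without Maf it was 25353 in PBS and 33492 in OVA at P70, and 18225 and 16391 at P30. Hpgd, nearly level at 14.01 and 14.04 at P70, was by far the brightest marker left. The sum therefore gives no size for the markers that differed. Whether the share of such cells in the pools contributed to the differences of genes they express, class II genes among them, was not tested.

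**Figure D2:**
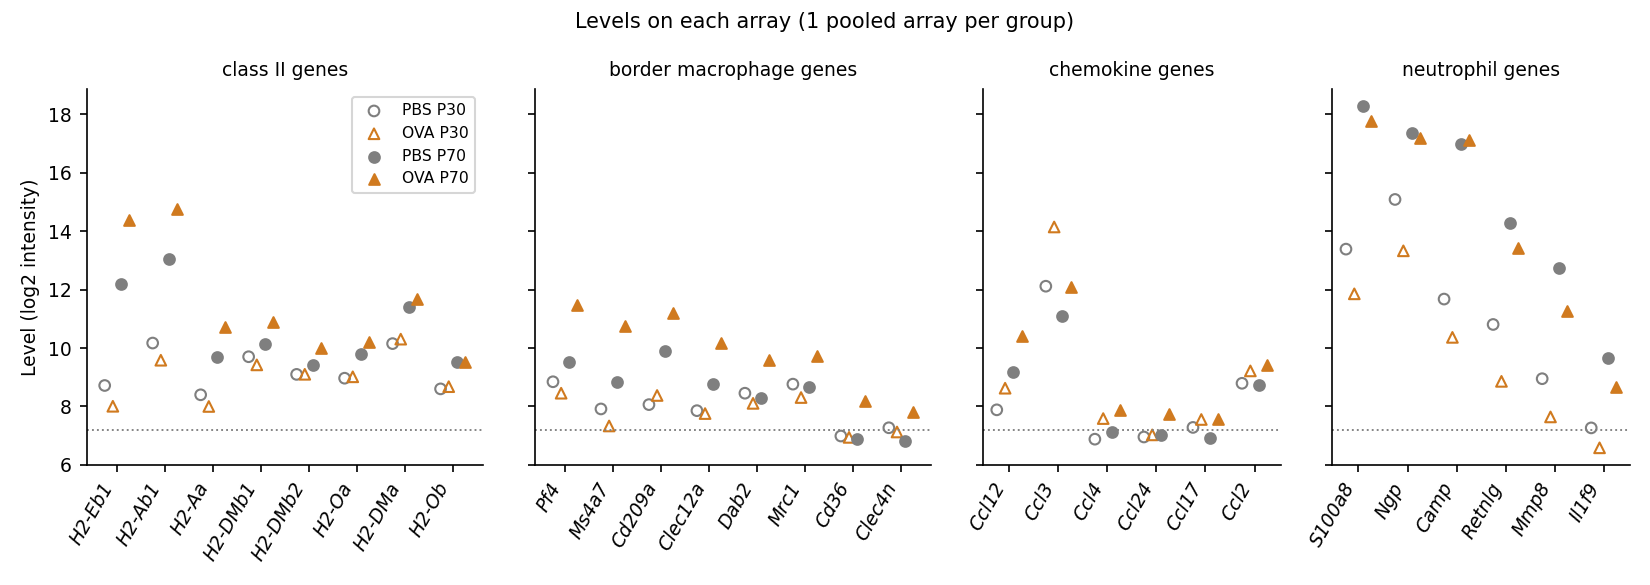
Level in log2 intensity on each of the 4 arrays for genes of 4 lists, with open symbols for P30, filled symbols for P70, grey circles for PBS, orange triangles for OVA and a dotted line at the floor of 7.18. The filled triangle of OVA at P70 stands above the 3 other arrays for H2-Eb1 (14.40), Pf4 (11.47) and Ms4a7 (10.77), while Mmp8 is lower in OVA at both ages.

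Of the IL-4 and IL-13 list, 8 of 15 expressed members were at least 1.5-fold higher as deposited, and 5 after centring. The receptor chain genes Il13ra1 and Il4ra were at 11.19 and 10.91 in PBS and 11.93 and 11.46 in OVA, and Stat6 at 8.90 and 9.58. Irs2, an adaptor of the IL-4 receptor that also serves the insulin receptor, went from 8.87 to 9.89. The differences were 0.74 (0.56), 0.55 (0.38), 0.68 (0.53) and 1.02 (0.87). Among the targets, the lectin genes Clec10a and Mgl2 differed by 0.59 and 0.53 and the resistin-like gene Retnla by 0.54. The chemokine gene Ccl17 differed by 0.64, from 6.92 to 7.56, and was under the floor in PBS, so the size of its difference is uncertain. The kinase genes Jak1 and Tyk2 differed by -0.14 and -0.012, the demethylase gene Kdm6b by 0.09 and the transglutaminase gene Tgm2 by -0.12. Arg1, a hallmark target, lay under the floor at 6.58 and 6.77, as did Irf4, Pparg, Socs1 and Ccl22. Il4ra, Mgl2 and Retnla lay inside 1.5-fold under both scalings. None of the 15 was lower, and the median was 0.59 (0.47), or 0.20 with members under the floor included. Of the 8, Cd209a, Mrc1, Ccl24 and Clec10a also stand in the border-associated macrophage list, and Ccl24 passed the floor only through the OVA array at P70. After centring Il13ra1, Stat6 and Clec10a no longer reached 1.5-fold.

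Ccl17 and Retnla are the 2 of 11 members with a promoter in the table that hold the STAT6 type element TTC, any 4 bases, then GAA, which is its own inverse. It occurs in 6.95% of all promoters. The 60 bases around it are shown with the element in capitals, at chr8:94810274-94810333 for Ccl17 and chr16:48842439-48842498 for Retnla, both on the plus strand.
Ccl17: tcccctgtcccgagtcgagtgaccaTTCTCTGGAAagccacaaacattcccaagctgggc
Retnla: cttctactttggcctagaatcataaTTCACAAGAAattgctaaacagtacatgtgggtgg

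Several chemokine genes were higher in OVA. Of 13 expressed ligands, 7 were at least 1.5-fold higher, 6 after centring and none lower, with a median of 0.64 (0.56). The 7 include Ccl24, which passed the floor only through the OVA array at P70. With the 16 ligands under the floor included the median was 0.076, and over the settings tried the number higher ran from 4 to 8. Ccl12 and Ccl2, attractants of monocytes, were at 9.18 and 8.74 in PBS and at 10.40 and 9.43 in OVA. Ccl3 and Ccl4, inflammatory chemokines of macrophages, were at 11.09 and 7.12 in PBS and at 12.08 and 7.87 in OVA. The differences were 1.21 (1.06), 0.69 (0.56), 0.99 (0.81) and 0.75 (0.74). At P30 the same 4 genes differed by 0.74, 0.42, 2.03 and 0.71, so all 4 were higher in OVA at both ages. Ccl4 lay under the floor on both PBS arrays, so the sizes of its differences are uncertain. Ccl9 and Cxcl16 differed by 0.56 and 0.51, and Ccl6, Ccl25 and Ccl27a by -0.063, -0.026 and -0.18, with Ccl11, the eotaxin gene, at 0.22. The interferon-induced Cxcl9 and Cxcl10 lay under the floor on the mean of the arrays and were at 7.52 and 7.05 and at 6.45 and 6.07.

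Receptor genes did not follow. Of 9 expressed, none was at least 1.5-fold higher and Cxcr4 was lower. Cxcr4, the receptor of CXCL12, had P70 levels of 9.50 (PBS) and 7.61 (OVA) and lay under the floor at 6.45 and 6.46 at P30, a difference of -1.89 (-1.99) at P70. Its OVA level at P70 was close to the floor, and Cxcr4 passed the floor on the mean only through the PBS array at P70, in which it is high. The list median was 0 (-0.12). Ccr2 differed by 0.48, the complement receptors C5ar2 and C3ar1 by 0.48 and 0.44, and the neutrophil receptor Cxcr2 by -0.32. Cx3cr1 carried the same value, 18.39, on both arrays. Such values, equal to within 0.0001 at a level of at least 12, were found for 6 genes and give no measured difference.

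Lectin receptors were higher in part. Of 21 expressed C-type lectin receptors, 8 were at least 1.5-fold higher, 6 after centring and none lower. The 8 include Clec4n and Clec2i, which passed the floor on the mean only through the OVA array at P70. The list median was 0.49 (0.41), or 0.18 with members under the floor included. Beyond those already named, Clec4b1, a dendritic cell receptor, went from 9.18 to 10.76 (1.58), Clec7a, the beta-glucan receptor dectin-1, from 10.63 to 11.63 (1.00) and Clec2i from 7.47 to 8.08 (0.61, centred 0.57). Clec4a2, Clec4a3 and Clec5a, at levels between 11.85 and 13.14, differed by -0.13, -0.074 and -0.15, and Clec4d by -0.47 (-0.57). Among 19 expressed Toll-like receptors and adaptors only Tlr13, a sensor of bacterial ribosomal RNA, reached 1.5-fold, at 11.45 and 12.63 (1.18, centred 1.00). Cd180 and Tlr2 differed by 0.58 and 0.57, Tlr4 by -0.084 and Tlr7 by -0.10. Tlr8, under the floor on the mean of the 4 arrays, read 6.38 in PBS and 7.77 in OVA. The list median was 0.21 (0.069). Of 9 Fc receptor genes, Fcgr4 alone reached 1.5-fold (0.73, centred 0.57), and Fcgr3 and Fcgr2b differed by -0.015 and 0.029, with a median of 0.15 (-0.014). Lilrb4a was the 1 of 22 inhibitory and paired receptors past 1.5-fold (0.78, centred 0.61), close to the 4.00% of all expressed genes, and their median was 0.094 (-0.039). Among 7 Ms4a genes, Ms4a7 was past it, Ms4a4c, Ms4a6d, Ms4a6c and Ms4a8a differed by 0.55, 0.35, 0.32 and 0.21, and Ms4a6b and Ms4a4a by -0.088 and -0.12, with a median of 0.32 (0.16).

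**Figure D3:**
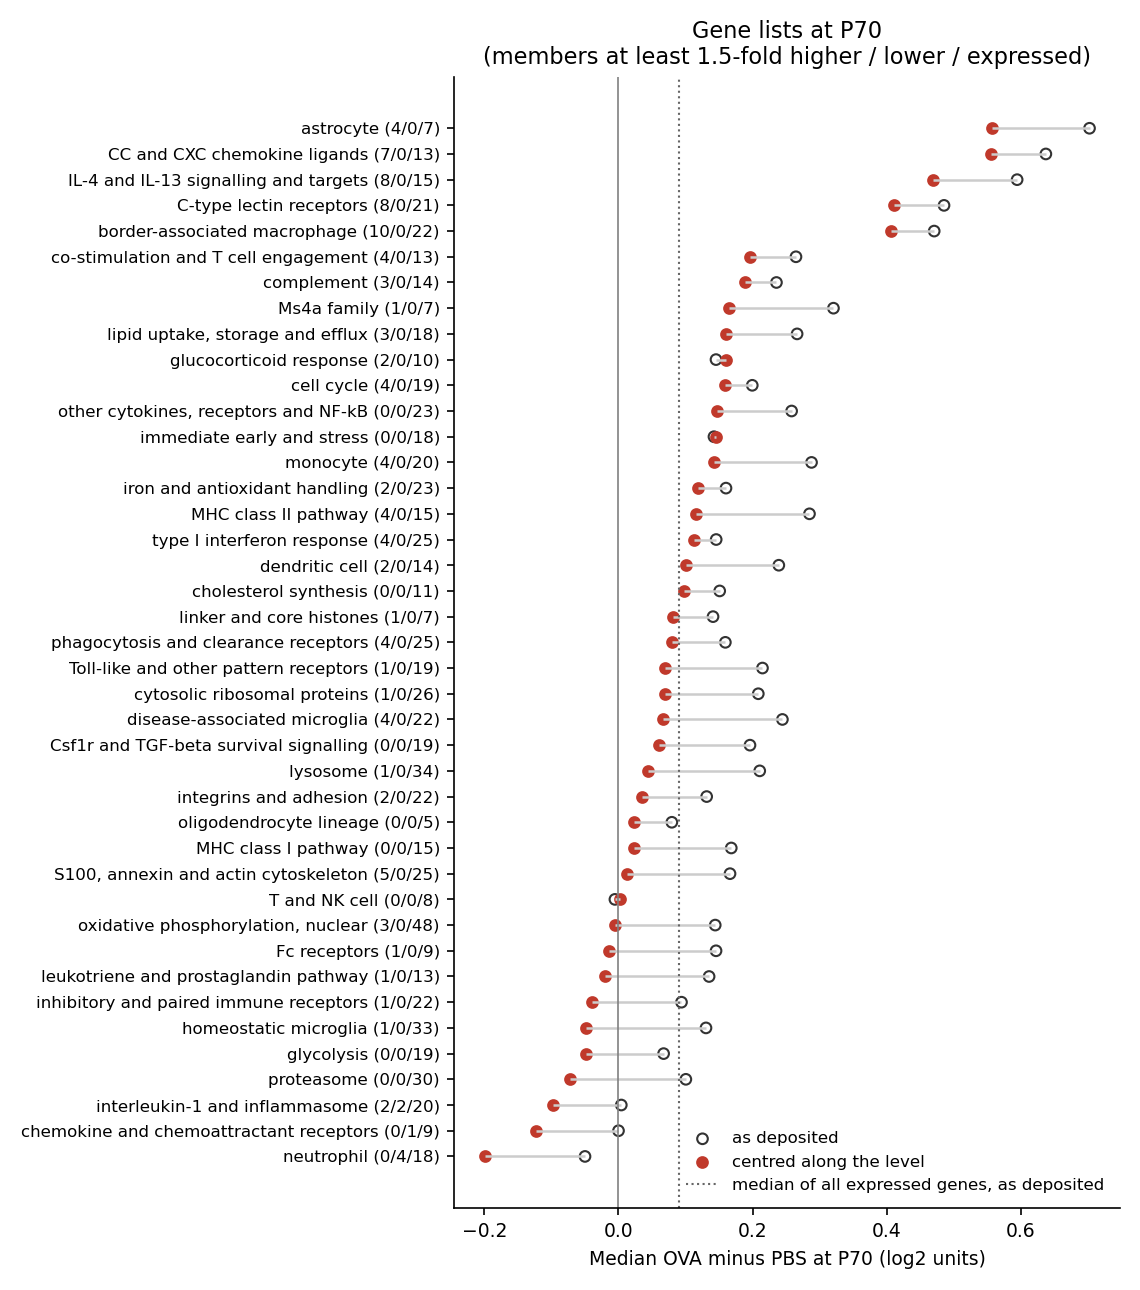
Median OVA minus PBS difference at P70 in log2 units for each gene list with at least 5 expressed members, as deposited (open circles) and centred along the level (filled circles), with the numbers of members at least 1.5-fold higher, lower and expressed in brackets. Chemokine ligands (0.64), IL-4 and IL-13 (0.59), C-type lectins (0.49), border-associated macrophages (0.47) and the 7 astrocyte genes (0.70) lie to the right, and neutrophil genes (-0.050) at the bottom.

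A part of the interferon list was past 1.5-fold and the rest was not. The 4 of 25 members past 1.5-fold were 3 genes of the p200 DNA sensor cluster and a transmembrane restriction factor. Ifi207 was at 9.70 in PBS and 10.94 in OVA, Ifi204 at 9.79 and 11.02, Ifi211 at 9.31 and 10.41, and Ifitm2 at 9.24 and 10.17. They differed by 1.24 (1.07), 1.23 (1.06), 1.10 (0.94) and 0.93 (0.77), and all 4 were lower in OVA at P30, by between 0.18 and 0.42. The p200 genes resemble each other, so their probe sets may share signal. Antiviral genes of the same list lay inside 1.5-fold. Ifit3 differed by 0.44, Rsad2 by 0.47, Isg15, under the floor on both P70 arrays, by 0.12, Ifitm3 by 0.11, Mx2 by 0.031 and Irf9 by -0.24. Members under the floor on the mean of the arrays went both ways. Ifit1 (6.74 and 7.33), Ifit3b (6.90 and 7.33), Cmpk2 (6.68 and 7.14) and Oasl2 (6.64 and 7.06) read higher in OVA. Irf7, Mx1, Oas2 and Oasl1 read lower, and Oas3 was level. The median of the list was 0.15 (0.11).

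The promoters of Ifi207, Ifi211 and Ifitm2 are set beside each other because all 3 hold GAAA, any 2 bases, then GAAA, the repeat of interferon-stimulated response elements, on the plus strand of the gene. The letters were searched after the values had been seen, on both strands, and occur in 3.44% of all promoters. The stretches, with the repeat in capitals, are at chr1:173741816-173741875, chr1:173913049-173913108 and chr7:140955973-140956032 on the minus strand.
Ifi207: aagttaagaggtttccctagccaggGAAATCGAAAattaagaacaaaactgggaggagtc
Ifi211: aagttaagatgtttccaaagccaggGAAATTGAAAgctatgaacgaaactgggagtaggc
Ifitm2: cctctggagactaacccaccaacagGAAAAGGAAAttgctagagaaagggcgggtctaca

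Inflammasome and cytokine genes gave a mixed picture. Nlrp3, the sensor, went from 9.30 to 10.14 (0.84, centred 0.69) and Il1a from 12.43 to 13.08 (0.64, centred 0.46), whereas Il1b differed by 0.14, Casp1 by 0.25 and Il18 by 0.079. Il1f9, an IL-36 cytokine also expressed by neutrophils, was at 9.65 in PBS and 8.65 in OVA (-1.14 after centring). Naip6 was at 10.05 and 8.74 (-1.30), but Naip genes are near-identical copies and its signal is uncertain. Of 20 expressed members of the interleukin-1 list, 2 were higher and 2 lower, with a median of 0.0042 (-0.098). None of 23 other cytokine, receptor and NF-kB genes reached 1.5-fold as deposited. Tnfrsf1a differed by 0.51, Tnf by 0.26, Rela by -0.14 and Il6, at 9.28 and 8.73, by -0.55, which came to -0.69 after centring. Their median was 0.26 (0.15).

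Among clearance and complement genes a few members carried the difference. Of 25 phagocytic receptors, Cd36, Treml4 (7.08 to 8.05), Rac2 (12.33 to 13.10) and its activator gene Dock2 (11.08 to 11.71, centred difference 0.45) were at least 1.5-fold higher. Cd36 and Treml4 lay under the floor on every other array and passed it on the mean only through OVA at P70. Mertk and Trem2 differed by 0.11 and 0.079. C1qb, a chain of complement C1q, was at 15.66 and 16.40 (0.74, centred 0.58), while the other chains C1qa and C1qc differed by 0.055 and 0.24. The integrin genes Itgax and Itgb2, which pair as complement receptor 4, were at 8.05 and 10.81 in PBS and at 8.74 and 11.46 in OVA, and Itgb2 came to 0.47 after centring. Cd59a, an inhibitor of complement lysis, was at 8.14 and 7.56 (-0.58, centred -0.63), just inside 1.5-fold as deposited. The complement list had 3 of 14 members higher (1 after centring), and the integrin list 2 of 22 (1 after centring). Their medians were 0.24 (0.19) and 0.13 (0.035), and that of the phagocytic receptors 0.16 (0.080).

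Genes that microglia raise around amyloid plaques, the disease-associated set, had 4 of 22 members past 1.5-fold, as deposited and after centring. The count was 7 after quantile normalization over all probe sets and 1 after it over the expressed genes. Besides Clec7a, Lilrb4a and Itgax it was the cystatin gene Cst7, at 8.85 and 9.61. Apoe differed by 0.40, Lpl by 0.33, Cd9 by -0.061 and Trem2 as given above, and the median was 0.24 (0.066). The homeostatic set, which falls in such microglia, had a median of 0.13 (-0.048). Its single member past 1.5-fold was the adhesion receptor gene Adgrg1 (0.63), which came to 0.45 after centring. Gpr34 and Tgfbr1 had the lowest values, -0.21 and -0.14. None of 19 genes of Csf1r and TGF-beta signalling, which microglia need to survive, differed by 1.5-fold: Csf1r differed by 0.40, Irf8 by 0.45, Tgfb1 by 0.058 and the median was 0.20 (0.060).

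Genes of cell shape, lipid and metal handling added single members. Emp3, a membrane protein gene, was at 11.03 in PBS and 12.46 in OVA (1.43, centred 1.25). The calcium-binding protein gene S100a4 was at 9.58 and 10.74, Crip1 at 9.34 and 10.17, the galectin-1 gene Lgals1 at 10.31 and 10.99 and the cofilin gene Cfl1 at 13.41 and 14.06. These 5 of 25 members of the S100, annexin and actin list were past 1.5-fold, 3 after centring, which took Lgals1 to 0.51 and Cfl1 to 0.47, yet the median was 0.17 (0.012), and Anxa1 and S100a1 stood at -0.26 and -0.43. Hcar2, the receptor of hydroxybutyrate and niacin, went from 8.21 to 9.55 (1.34, centred 1.22). With Cd36 and Mylip it made up the 3 of 18 lipid genes past 1.5-fold. Of these, Mylip (0.60) came to 0.42 after centring, and Cd36 passed the floor only through the OVA array at P70. Mt1, a metallothionein gene, was at 8.83 and 9.70 and the ferritin light chain gene Ftl1 at 12.85 and 13.47 (0.63, centred 0.45), 2 of 23 iron and antioxidant genes. The medians of the lipid and iron lists were 0.27 (0.16) and 0.16 (0.12). Alox5, which starts leukotriene synthesis, was the 1 of 13 eicosanoid genes past 1.5-fold (0.61, centred 0.48), with a list median of 0.14 (-0.021), and none of 11 cholesterol synthesis genes was, with a median of 0.15 (0.10).

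Cell cycle genes were higher in part. Mki67, the proliferation marker, was at 8.56 in PBS and 9.79 in OVA (1.23, centred 1.09). The tubulin regulator gene Stmn1 went from 9.51 to 10.38, the cell cycle inhibitor gene Cdkn1a from 8.02 to 8.75 and the cyclin gene Ccnd2 from 7.16 to 7.80. These were the 4 of 19 members past 1.5-fold, as deposited and after centring. The count was 1 with the stricter floor, 2 after quantile normalization over the expressed genes and 6 with no floor. A further 15 members of the list lay under the floor. Ccnd2 was under it on every other array and passed it on the mean only through the OVA array at P70. Pcna, Mcm3, Mcm4 and Aurka differed by -0.072, -0.30, -0.23 and -0.36, and the median was 0.20 (0.16). Among 7 histone genes, H1f2, a linker histone gene, was past 1.5-fold (0.86, centred 0.70), and the median was 0.14 (0.082).

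Housekeeping programmes were close to the whole. The medians were 0.21 (0.044) over 34 lysosomal genes, 0.14 (-0.0045) over 48 nuclear genes of oxidative phosphorylation, 0.21 (0.069) over 26 ribosomal protein genes, 0.10 (-0.072) over 30 proteasome genes and 0.067 (-0.048) over 19 glycolytic genes. In these lists the members past 1.5-fold were Lamp1 (0.74), Ndufa2 (0.83), Atp5o (0.65), Cox6b1 (0.63) and Rpl12 (0.63), and after centring Ndufa2 (0.64), with Ndufa12 (-0.60) and Psmd11 (-0.65) on the lower side. None of 18 immediate early genes differed by 1.5-fold (median 0.14, centred 0.15), although 12 of them had been at least 1.5-fold higher in OVA at P30. Mt1 and Cdkn1a were the 2 of 10 glucocorticoid-responsive genes past 1.5-fold, with Dusp1 at 0.55, Per1 at 0.18 and a list median of 0.15 (0.16).

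Some neutrophil genes were lower in OVA. Mmp8, neutrophil collagenase, had P70 levels of 12.74 (PBS) and 11.28 (OVA) and P30 levels of 8.95 and 7.64. Retnlg, a resistin-like gene of neutrophils, was at 14.27 and 13.42 and at 10.81 and 8.86. The P70 differences were -1.46 (-1.64) and -0.85 (-1.03). With Il1f9 and Stfa3 (-0.63) these were the 4 of 18 expressed members at least 1.5-fold lower, beside 1.25% of all expressed genes, and S100a8 (-0.51, centred -0.64) joined them after centring. Granule genes were not uniformly lower: Ltf differed by 0.48, Ly6g by 0.34, Camp by 0.14, Lcn2 by 0.041, S100a9 by -0.14 and Ngp by -0.16. The list median was -0.050 (-0.20), and it was above 0, at 0.067, after quantile normalization over all probe sets and at 0.030 with no floor. Of the 18 expressed members, 9 lay above 0. The number lower ran from 2 to 5 over the settings tried. The summed intensity of its 28 genes was 898490 in PBS and 766470 in OVA. S100a8, the brightest of them on both arrays, weighed most in this sum, and Camp, also bright, was higher in OVA. Whether the share of neutrophils in the pools contributed to the differences of these genes was not tested.

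Markers of monocytes and dendritic cells were partly higher. Of 20 expressed monocyte genes, S100a4, Treml4, Napsa (7.74 to 8.52) and Ifitm6 (9.48 to 10.12) were past 1.5-fold, all but Ifitm6 (0.49) also after centring. Treml4 passed the floor only through the OVA array at P70. Ly6c2 at 14.14 and 14.19 and Plac8 (0.30) were not past 1.5-fold, and Vcan lay under the floor (6.18 and 6.14). The summed intensity of the 24 monocyte genes was 34396 in PBS and 39692 in OVA. Of 14 expressed dendritic cell genes, Cd209a and Ccl17 were past 1.5-fold, Ccl17 from a PBS level under the floor. The defining genes Flt3, Zbtb46, Xcr1 and Clec9a were under the floor on both arrays, between 5.80 and 6.44. The medians were 0.29 (0.14) and 0.24 (0.10). What these cells added to the class II and lectin differences was not tested.

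Ttr had the largest difference of all expressed genes. It encodes transthyretin, the thyroid hormone carrier of the choroid plexus, and read 7.90 on the PBS and 12.02 on the OVA array, a 17.3-fold difference (15.5-fold after centring), after 7.45 and 9.32 at P30. Most of its list was too dim to show whether it followed. Of 23 choroid plexus and ependymal genes, 21 lay under the floor, between 5.08 and 7.04 in PBS and between 5.23 and 7.20 in OVA. These dim members went both ways, from Ecrg4 at 5.98 and 6.46 to Tmem212 at 6.66 and 6.39, and more read higher than lower in OVA. Folr1 was at 5.97 and 6.34, Kl at 5.54 and 5.91, Clic6 at 5.41 and 5.23, and Kcne2, the other expressed member, at 8.26 and 7.89. Ttr therefore made up nearly all of the change in the summed intensity of the list, 2197 in PBS and 6123 in OVA.

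Among glial and vascular genes, 4 astrocyte markers stood out from dim levels. Ndrg2 went from 7.62 to 8.52, Cpe from 7.99 to 8.85, Sparcl1 from 7.43 to 8.15 and the glutamate transporter gene Slc1a3 from 8.95 to 9.65. They were the 4 of 7 expressed astrocyte genes past 1.5-fold, all but Slc1a3 (0.56) also after centring. The 4 include Sparcl1, which passed the floor on the mean only through the OVA array at P70, in which it is high. The count and the list median therefore rest partly on the filter. The list median was 0.70 (0.56), or 0.21 with members under the floor included. The 16 others lay under the floor, with Gfap at 6.35 and 6.33, Aqp4 at 6.17 and 6.27 and Gja1 at 5.79 and 5.83. The summed intensity of the 23 astrocyte genes was 3178 in PBS and 4136 in OVA. Oligodendrocyte (5 expressed of 22, median 0.080), neuronal (2 of 27, -0.091), endothelial and mural (3 of 28, -0.13) and fibroblast genes (2 of 21, 0.21) had no member past 1.5-fold. Neither had T and NK cell (8 of 27, -0.0053), B cell (4 of 18, 0.10) or mast cell, basophil and eosinophil genes (4 of 23, -0.33) as deposited, and after centring Cd79b of B cells was at -0.59. Among 4 erythroid genes Hbb-bh0 was lower (-0.61). The alpha-globin pseudogene Hba-ps4 had been at 9.06 and 7.90 at P30 and read 7.26 (PBS) and 9.28 (OVA) at P70. It has near-identical globin copies and is uncertain.

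**Figure D4:**
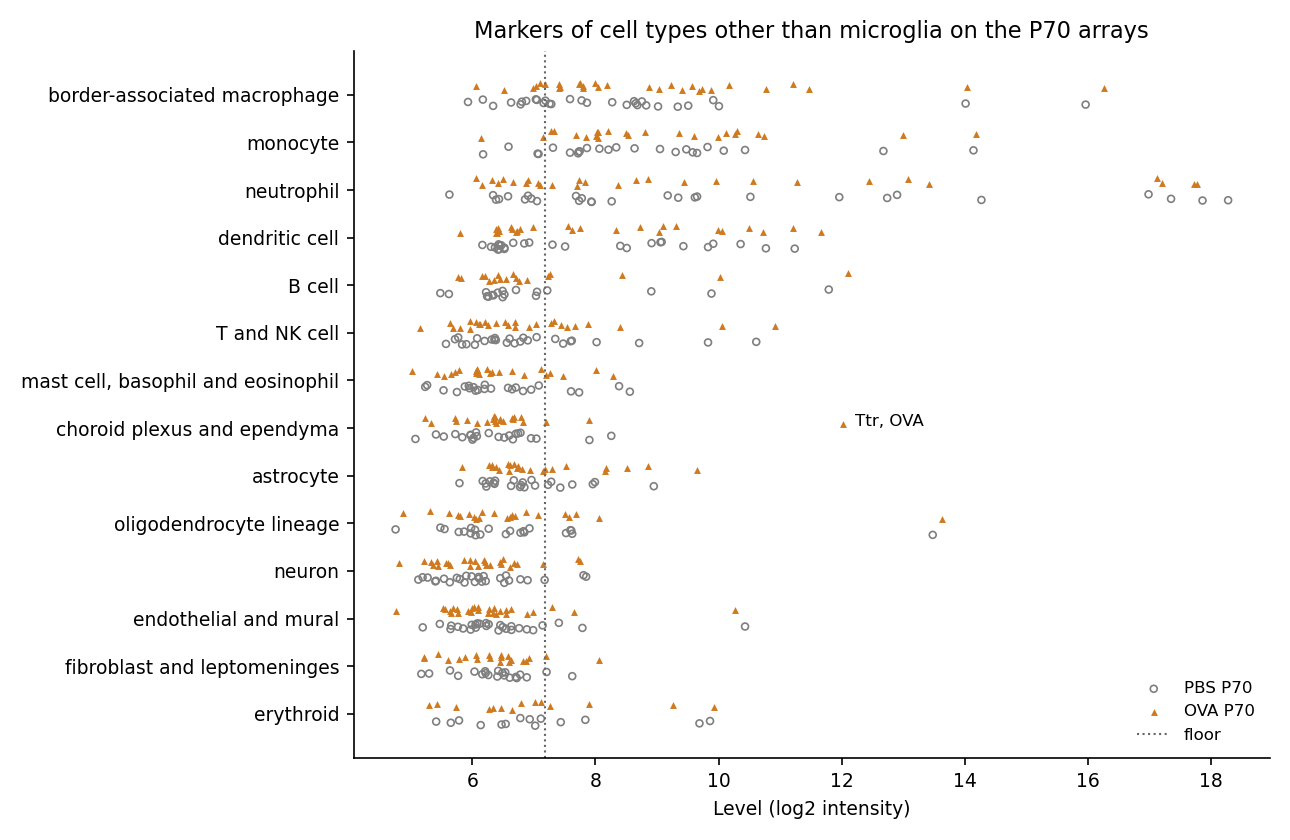
Levels in log2 intensity of every marker found for 14 cell types other than microglia, on the PBS (grey circles) and OVA (orange triangles) arrays at P70, with a dotted line at the floor. Neutrophil genes reach 18.28 in PBS and 17.77 in OVA, most markers of neurons, vessels and fibroblasts lie under the floor, and Ttr in OVA (12.02) stands apart from the rest of its list.

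The remaining genes at the top of the centred ranking were the ribosomal RNA gene Rn28s1, at 11.77 and 13.56, the zinc finger gene Zc3h6, at 7.51 and 8.66, and the pseudogene Tcea1-ps1, at 7.86 and 9.03. At the lower end, beside Cxcr4, Mmp8, Naip6 and Il1f9, stood genes of other tissues. Ttll2 was at 8.53 and 6.96 and Kprp, an epidermal gene, was lower by 1.53, both under the floor in OVA. The trace amine receptor genes Taar9 and Taar7f were lower by 1.39 and 1.10, and Speer4d, Speer4c, Speer8-ps1, Astx1a, Astx1b, Astx1c, Mup-ps18, Klk1b8, Spin2f and Spopfm2 were lower by between 1.03 and 1.23. They are members of multigene families whose copies resemble each other, and the 3 Astx1 genes carry the same values, so their signals are uncertain. Ppil4 was at 9.78 and 8.83. Xdh, the purine enzyme xanthine dehydrogenase, was lower from a high level, 15.67 in PBS and 14.75 in OVA, after 16.80 and 16.73 at P30.

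Gene families that are silent in most brain cells were also lower, a grouping made after their values were seen. Among olfactory receptors 77 of 287 with a mean level above the floor were at least 1.5-fold lower (26.8%) and 16 higher, with a median of -0.34, and among vomeronasal receptors 46 of 119 were lower (38.7%) and 2 higher, with a median of -0.36. Both receptor classes are left out of the 17641 genes. The median level of the olfactory receptors was 8.19 and 8.12 on the PBS and OVA arrays at P30 and 7.57 on the PBS array at P70. Major urinary protein genes (9 of 19 lower), Speer genes (5 of 11), Astx genes (5 of 5) and secretoglobin genes (3 of 16) had no higher member. The part of background signal in these values was not tested.

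The P70 values were set beside those of P30, with no test of the difference between ages. The P30 pair had 59 expressed genes at least 1.5-fold higher in OVA (0.669%) and 80 lower (0.907%). None of the class II, border macrophage or IL-4 and IL-13 genes was at least 1.5-fold higher there. Beside a share of 0.669% that is close to the background for lists of this size. Of the 353 higher genes at P70, 12 were higher at P30 as well, 14 were lower there and 327 were within 1.5-fold. Of the 110 lower, 7 were also lower at P30, 1 was higher and 102 were within. Chosen after their values were seen, Ptafr, the receptor of platelet-activating factor, went at P70 from 10.67 to 11.75, Cybb, the oxidase subunit of phagocytes, from 10.84 to 11.83, the phosphatase gene Dusp6 from 12.34 to 13.45 and the transcription factor gene Mitf from 8.96 to 9.80. The 2 ages use separate PBS arrays.

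**Figure D5:**
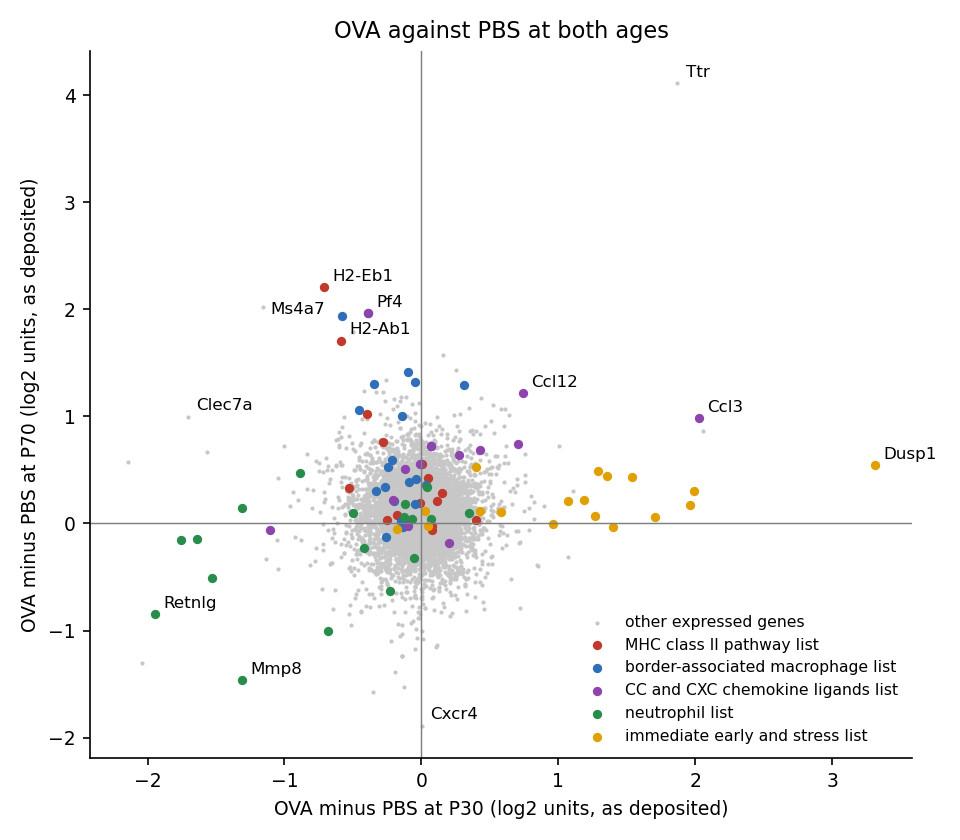
OVA minus PBS difference in log2 units at P30 (x axis) and P70 (y axis) for each expressed gene, with members of 5 lists coloured. Class II and border macrophage genes spread upwards near or left of 0 on the x axis (H2-Eb1 at -0.71 and 2.21), immediate early genes spread to the right near 0 on the y axis (Dusp1 at 3.31 and 0.55), and Ccl3, Ccl12 and Ttr are above 0 on both.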

How the data were processed

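RNA of isolated microglia, pooled from 4 samples per group, was measured on 1 single-colour array (GeneChip WT Pico) per group, per the labels' protocols. The authors deposited 1 linear intensity per probe set and array. The submitters' processing notes name Affymetrix Expression Console 1.4.1 and RMA, without their role; the scaling of the arrays and the genome build are not given in the sources used here. Deposited intensities had a median of 111 in PBS and 105 in OVA at P70.

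From these, log2 values were taken with no pseudocount. Of 65956 probe sets, 30604 had 1 symbol, 2146 several and 33206 none here, and 827 had their symbol updated through RefSeq. Predicted genes, small RNAs, large receptor families and antigen receptor segments (12722 probe sets) were left out, and the brightest probe set stood for a gene (197 genes had several). The difference was OVA minus PBS, and centring subtracted a lowess trend (span 0.3, 3 iterations) of it on the mean level. Differences were counted at 1.5-fold (0.585 in log2). Each group being 1 array, no test was run and p-values, errors and replicate checks could not be had. The computation was tested on simulated data. Promoters were searched on both strands of the RefSeq table (GRCm38.p6). Python 3.11.15, numpy 2.4.6, pandas 2.3.3, statsmodels 0.14.6 and matplotlib 3.10.9 were used.

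Genes named are the 20 highest and 20 lowest by centred difference, members of 48 lists with the largest differences or levels, and all expressed members of the main lists. The genes compared and the lists were chosen with earlier results of these data known. Alternatives varied the scaling, the filter on dim genes, the pseudocount (16), the probe set rule, the gene classes and the fold.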

Additional observations from a re-analysis of the deposited data

Results flagged for a closer look

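For 14 expressed genes the OVA minus PBS difference was past 1.5-fold upwards at P70 and downwards at P30, and 7 of them are among the genes named by the rule. The difference of the differences, in log2 units, was 3.18 for the globin pseudogene Hba-ps4, 2.92 for H2-Eb1, 2.7 for Clec7a, 2.3 for H2-Ab1, 1.4 for Lilrb4a, 1.4 for Slamf9 and 1.34 for Fcgr4. Clec7a, for example, differed by 1.00 at P70 and by -1.71 at P30, and H2-Eb1 by 2.21 and -0.71. The 7 others were Gpr84, Lyz1, Mif, ND2, Plek, Ppp6c and Selenot. With 1 array in each group at each age these differences were not tested.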

How the results depend on the processing

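Against 353 genes higher and 110 lower, the counts were 173 and 167 after centring along the level, 202 and 182 with each array centred on its median, and 459 and 64 after quantile normalization over all probe sets. They were 437 and 217 with no filter on dim genes, 249 and 49 with a stricter floor, 630 and 995 with all gene classes kept, and 42 and 18 at 2-fold. Chosen after seeing the data, a span of 0.15 in the centring gave 175 and 166, and quantile normalization over the expressed genes 112 and 107. Both P70 arrays at or above the floor, a pseudocount of 16 and the mean over probe sets each stayed within 1.5 times of both counts. Of 100 named genes past 1.5-fold, 77 stayed past it after centring and 68 after quantile normalization over the expressed genes. Named genes past 1.5-fold changed direction under none of the scalings, filters and rules run. No paired analysis was possible because each group is 1 array, and for the same reason no replicate could be left out. Values near the upper limit of the scale, 19.93, give no size of a difference, and those near the floor give an uncertain one.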

Other observations

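Outside the lists, and chosen after their values were seen, further genes of phagocytes were higher in OVA at P70. Gpr65, a proton-sensing receptor, differed by 0.98, Scimp, an adaptor of class II and Toll-like receptor signalling, was at 8.22 in PBS and 9.35 in OVA, and Plek, a phagocyte signalling protein gene, at 11.51 and 12.37. Mndal of the p200 cluster was at 8.65 and 9.54 and Phf11b at 10.11 and 11.11. The mitochondrial gene ND3 was at 13.95 and 15.06. The acute phase gene Orm1 was lower, at 8.12 and 7.18.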
